A study of Homo sapiens with 6 samples.

Results

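Protein kinase C and RASGRP proteins are the main cellular receptors of phorbol esters, and 10 of their genes were followed here in Jurkat cells with or without extra SCML4. The 10 genes are a list of names from the phorbol ester pathway, drawn up with earlier results of these data known: PRKCA, PRKCB, PRKCD, PRKCE, PRKCH, PRKCQ and PRKCZ of the protein kinase C family, the protein kinase D gene PRKD2, and the exchange factor genes RASGRP1 and RASGRP2. They are 10 of 39012 rows in the deposited table, and 9 of them were among the 14160 genes with enough reads to be tested, PRKCZ being the exception. Jurkat is an established human line from a T cell acute lymphoblastic leukaemia, entered in the labels as an ouabain-induced leukemia line. Of the 6 libraries, 3 came from cells with an empty vector (EV) and 3 from cells that stably overexpressed SCML4, a Polycomb family protein. All 6, EV included, were stimulated for 6 h with PMA (100 ng/ml) together with ionomycin (1 µM), and no unstimulated library is among the samples, so no value below measures the response to PMA. The labels name neither the promoter of the construct nor whether the cells were a clone or a pool. Since separate cultures are not stated either, the p-values speak only of how far the libraries scatter, and that scatter may be technical. In such bulk RNA, fewer cells with a transcript and less of it per cell cannot be told apart.

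In a T cell, the receptor activates phospholipase C, which splits a membrane lipid into diacylglycerol and the calcium-releasing messenger inositol trisphosphate. Diacylglycerol binds a zinc finger called the C1 domain, and PMA binds the same domain as a long-lived substitute. Conventional isoenzymes of protein kinase C need both diacylglycerol and calcium, a calcium-independent class needs diacylglycerol alone, and atypical isoenzymes respond to neither. RASGRP1 carries a C1 domain into RAS activation, while protein kinase D is both a diacylglycerol binder and a substrate of the calcium-independent class. Ionomycin supplies the calcium, so the pair of compounds enters this pathway below the receptor.

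The libraries held 8953671 to 10336597 reads, worked out from the FPKM steps, and levels are given as reads per 1000000 of the library total (CPM). The overexpressed gene SCML4 had 7, 2 and 1 reads in the EV libraries against 570, 657 and 506, a log2 difference of 5.55 (SE 0.19, adjusted p = 1.64e-09 in limma-trend). The lowest of the 8 T cell markers had at least 1029 reads in each library, and their summed level ran from 2509 to 2678 CPM in EV and from 2766 to 2814 in SCML4, groups that did not overlap. The part of that difference in the results below was not tested. Of the defining markers of other lineages, PAX5, LYZ, EPCAM, KRT18, CDH1, HBB and HBA2 were at 0 reads in all 6 libraries. CD79A, which belongs to the B cell list, had 207 to 338 reads, while MS4A1 had at most 2. EV replicate 1 lay apart from the rest, at -30.3 on a first principal component that carried 36.5% of the variance, against 2.3 to 8.1 for the other 5. Over 14148 genes (genes being no independent replicates) the Spearman coefficient between GC content and departure from the gene mean was -0.51 in that library and 0.05 to 0.29 in the others. Members are therefore given below with and without that library where it matters.

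Promoter sequences of 3 members are shown because these genes stand for the ends of the set: PRKCA had the most reads, PRKCQ is the isoenzyme most tied to T cells, and PRKD2 alone had groups that did not overlap. Each is the 250 bases before a RefSeq transcript start on GRCh38.p14, printed 5′ to 3′ on the gene's strand, and all 10 members had such a window in RefSeq, 16 windows in all. The other members lie on chromosomes 16 (PRKCB), 3 (PRKCD), 2 (PRKCE), 14 (PRKCH), 1 (PRKCZ), 15 (RASGRP1) and 11 (RASGRP2). Capitals mark the GC box letters GGGCGG and the TATA box letters TATAAA on either strand. PRKCA lies at chr17:66302363-66302612 on the plus strand, PRKCQ at chr10:6580647-6580896 on the minus strand and PRKD2 at chr19:46717115-46717364 on the minus strand.
PRKCA: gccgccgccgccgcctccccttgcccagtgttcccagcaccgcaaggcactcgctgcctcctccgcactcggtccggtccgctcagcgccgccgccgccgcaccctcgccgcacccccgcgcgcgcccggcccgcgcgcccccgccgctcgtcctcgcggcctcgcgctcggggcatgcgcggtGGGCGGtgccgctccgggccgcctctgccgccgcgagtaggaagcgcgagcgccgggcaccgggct
PRKCQ: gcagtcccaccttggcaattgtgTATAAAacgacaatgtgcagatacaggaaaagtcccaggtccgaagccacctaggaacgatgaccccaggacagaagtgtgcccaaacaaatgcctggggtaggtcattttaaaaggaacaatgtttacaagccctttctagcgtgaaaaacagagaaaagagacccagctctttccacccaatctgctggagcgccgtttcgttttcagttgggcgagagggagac
PRKD2: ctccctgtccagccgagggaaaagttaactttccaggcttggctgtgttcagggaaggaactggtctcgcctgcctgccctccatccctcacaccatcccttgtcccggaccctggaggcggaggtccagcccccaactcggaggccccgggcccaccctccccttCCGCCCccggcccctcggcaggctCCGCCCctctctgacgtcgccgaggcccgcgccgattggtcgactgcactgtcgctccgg

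The PRKCA window had 82.0% G and C with 47 CG pairs, the PRKD2 window shown had 69.2% with 19, and PRKCQ had 49.2% with 8. The median of 35116 windows of all RefSeq genes was 58.0% with 11. PRKD2 also had another window, not shown, with 65.6% G and C and 7 CG pairs. A GC box stood in 12 of the 16 member windows and in 42.6% of all windows. TATAAA stood in 1 member window, that of PRKCQ, beginning 227 bases before the start, and in 10.7% of all windows. The AP-1 letters TGANTCA, which cover the phorbol ester response element and are equal to their own reverse complement, stood in none of the 16 member windows and in 6.57% of all windows. These are matches of letters only, in windows that end at the start site.

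Conventional isoenzymes were the most abundant, and neither of them differed between the groups beyond the spread of the libraries. PRKCA encodes the calcium-dependent alpha isoenzyme. It stood at 868, 760 and 749 CPM in EV replicates 1 to 3 and at 754, 739 and 813 in SCML4 replicates 1 to 3, from 6813 to 8362 reads per library. The groups overlapped, with EV replicate 1 the highest of all 6. The log2 difference, SCML4 minus EV on log2(CPM + 1), was -0.04 (SE 0.08), with a 95% interval of -0.22 to 0.13. PRKCB, the beta isoenzyme, stood at 240, 239 and 250 CPM in EV and at 234, 248 and 262 in SCML4. Its values also overlapped, and the difference of 0.03 had an interval of -0.13 to 0.18, which as a ratio is 0.91 to 1.14.

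The calcium-independent isoenzymes divided into abundant PRKCH and PRKCQ and scarce PRKCD and PRKCE. PRKCH, the eta isoenzyme, stood at 226, 213 and 204 CPM in EV and at 210, 213 and 194 in SCML4. These values overlapped, with a difference of -0.06 (95% interval -0.23 to 0.10). PRKCQ encodes the theta isoenzyme, which gathers at the contact between a T cell and its partner and feeds NF-κB. It stood at 67.2, 60.99 and 65.2 CPM in EV and at 65.4, 67.3 and 74.6 in SCML4. SCML4 replicate 3 was the highest library, the groups overlapped, and the difference was 0.10 (95% interval -0.09 to 0.29). PRKCD, the delta isoenzyme, is known for a part in cell death as well as activation. It stood at 8.72, 9.92 and 10.7 CPM in EV and at 9.93, 11.8 and 11.3 in SCML4, a difference of 0.15 with an interval of -0.17 to 0.48. With 84 to 122 reads per library its spread within EV, a coefficient of variation of 10.4%, was close to the 10.1% that counting alone gives. The same measure shows where libraries differ by more than counting: PRKCE had 27.9% in EV and 26.4% in SCML4 against a counting value of 8.4%.

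PRKCE, the epsilon isoenzyme, was the most variable of the tested members. Its levels were 10.3, 15.3 and 18.4 CPM in EV and 10.6, 16.4 and 18.2 in SCML4. Replicate 1 was the lowest library in both groups, and the group means of 14.7 and 15.1 CPM were nearly equal. The log2 difference of 0.04 had an interval of -0.42 to 0.51, the widest among the members, so that a ratio anywhere from 0.75 to 1.42 lies within it. Without EV replicate 1 it was -0.18.

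Of the atypical isoenzymes, which do not bind PMA, the zeta gene was barely read. In EV, PRKCZ was read 1, 0 and 2 times and in SCML4 0, 3 and 0 times, 3 reads in each group. Where no read was seen, as many as 3 could be expected, which in those 3 libraries is 0.331 to 0.335 CPM, so no ratio can be given. Its exons overlap those of FAAP20 on the opposite strand, which had 415 to 591 reads, and no source used here says whether strand was used in counting. PRKCI, the iota gene, was the atypical isoenzyme that Jurkat cells did transcribe, at 57.5, 40.9 and 43.0 CPM in EV and 53.0, 43.2 and 45.9 in SCML4. Those values overlapped, with EV replicate 1 and SCML4 replicate 1 the highest of their groups.

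PRKD2 was the single member whose groups did not overlap, and it did not pass the test over all genes. It encodes protein kinase D2, the main protein kinase D of lymphocytes, which protein kinase C activates. Its levels were 49.5, 54.0 and 55.2 CPM in EV and 60.1, 62.2 and 69.6 in SCML4, from 477 to 643 reads. Each SCML4 library lay above each EV library, with means of 52.9 ± 2.97 and 64.0 ± 4.97 (SD, n = 3 each), a ratio of 1.21. The log2 difference was 0.27 (SE 0.09, 95% interval 0.07 to 0.47), with an adjusted p of 0.866 from limma-trend (unadjusted p = 0.0131). It ranked 170th of 14160 genes by p. Groups were apart with SCML4 higher in 6.29% of all tested genes and in 1 of the 9 tested members. The unadjusted p was under 0.05 with SCML4 higher in 3.34% of all tested genes. EV replicate 1 was the lowest library, at -0.27 in log2 from the mean of the other 5. Over the 19 alternatives, the fit without that library among them, the PRKD2 difference ran from 0.18 to 0.31. With each library corrected for GC content the difference was 0.18 (adjusted p = 0.852, and 0.326 to 0.99 over all alternatives), and the PRKD2 transcript has 62.0% G and C. Of its 2 relatives, PRKD1 had 0 reads in every library, and PRKD3 stood at 56.1 to 67.2 CPM in EV and 56.6 to 61.9 in SCML4, a difference of -0.05.

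**Figure D1:**
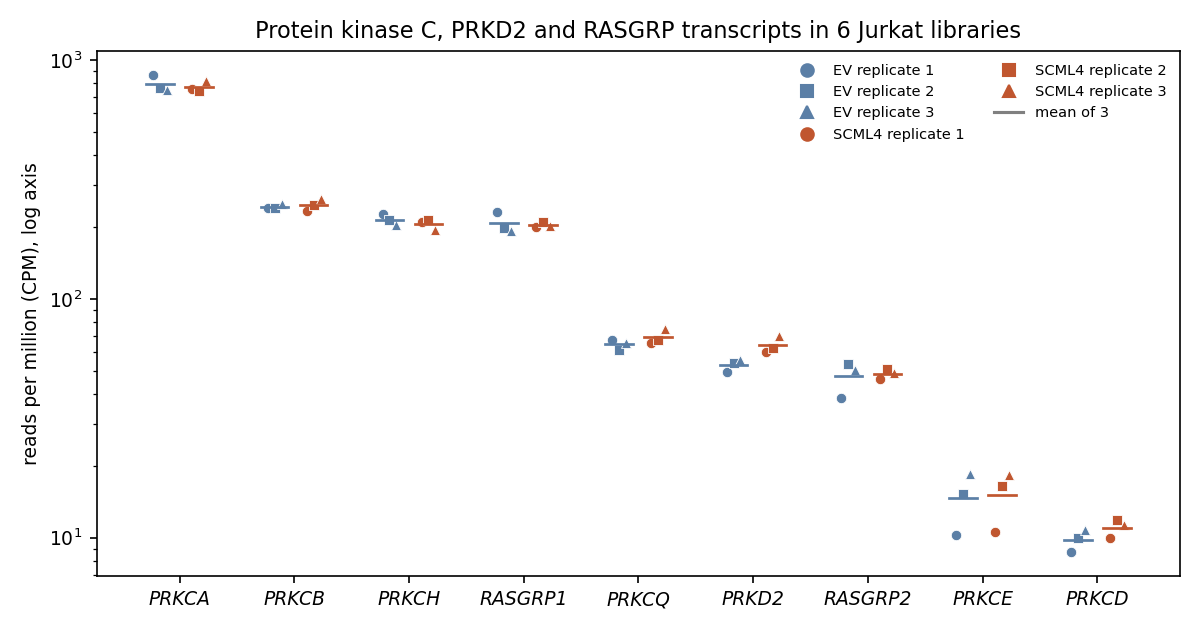
Levels of the 9 tested members in CPM on a log axis, 1 symbol per library (blue EV, orange SCML4, shape the replicate number) with the mean of 3 as a line. PRKCA lies at 739 or more in all libraries and PRKCD below 12, PRKD2 alone has SCML4 values (60.1 to 69.6) above every EV value, and PRKCE is lowest in replicate 1 of both groups.

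The exchange factors were dominated by RASGRP1, the diacylglycerol-responsive activator of RAS in T cells. RASGRP1 stood at 230, 198 and 193 CPM in EV and at 200, 209 and 201 in SCML4. The groups overlapped, with EV replicate 1 the highest, and the difference was -0.02 (95% interval -0.20 to 0.15). RASGRP2 activates RAP1, the switch of integrin adhesion, and answers to calcium more than to diacylglycerol. It stood at 38.5, 53.3 and 50.2 CPM in EV and at 46.2, 51.0 and 48.7 in SCML4. EV replicate 1 was the lowest of the 6, and the difference of 0.05 (95% interval -0.21 to 0.31) became -0.09 without that library and -0.05 after GC correction. RASGRP3, better known from B cells, had 9 to 18 reads and RASGRP4, known from mast cells, 2 to 5.

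The ratio of RASGRP1 to RASGRP2 within a library is free of the library total. In log2 of reads per kilobase of exonic length it was 2.57, 1.89 and 1.94 in EV and 2.11, 2.03 and 2.04 in SCML4. EV replicate 1 lay above the other 5, which spanned 1.89 to 2.11. The group means were 2.14 ± 0.38 and 2.06 ± 0.04 (SD, n = 3 each), and leaving out EV replicate 1 turned the difference from -0.07 to 0.15.

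Over the members together, 6 of the 9 tested differences were positive and 3 negative, where 52.4% of all tested genes were positive. The median was 0.04 in log2, against 0.01 over all genes, and the members ranged from -0.06 for PRKCH to 0.27 for PRKD2. By limma-trend 0 of 9 reached an adjusted p under 0.05 (0.866 to 0.984), and among all tested genes 0.00706% of genes did, SCML4 alone. At an unadjusted p under 0.05 there was 1 member, PRKD2, and 5.27% of all tested genes. The limma-voom fit of the recovered reads gave the same counts of 0 and 1. The median distance from a member's estimate to the ends of its 95% interval was 0.19 in log2, before any adjustment. Larger differences could also go uncalled after adjustment over all genes, as PRKD2 did at 0.27.

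**Figure D2:**
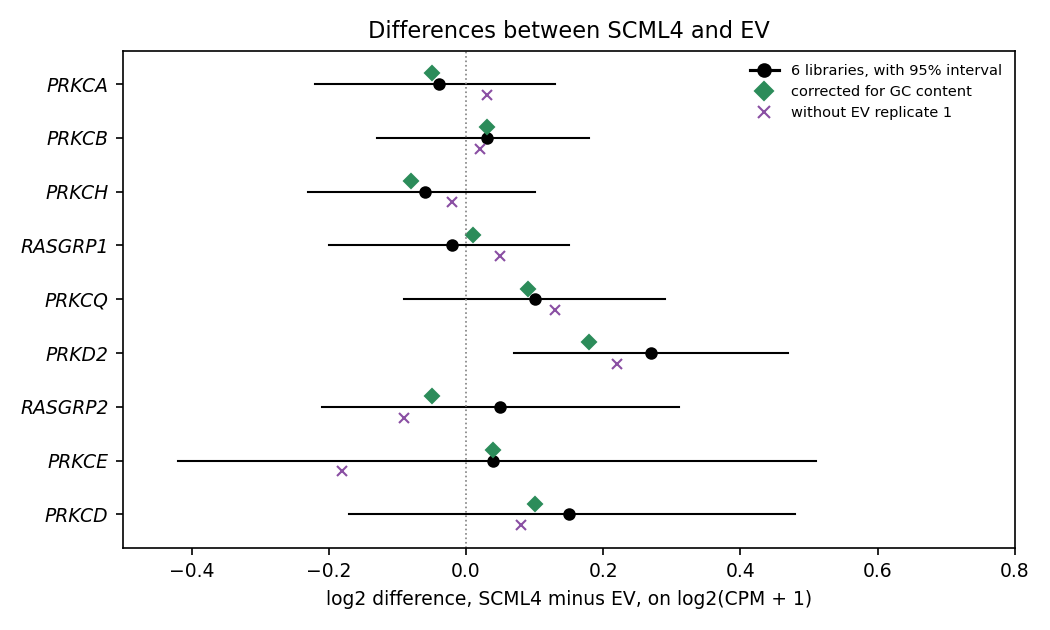
Log2 difference between SCML4 and EV for each tested member (black point, all 6 libraries, with its 95% interval), the same after GC correction (green) and without EV replicate 1 (purple). The interval of PRKD2, 0.07 to 0.47, is the only one that leaves out 0, before any adjustment, and PRKCE moves from 0.04 to -0.18 without EV replicate 1.

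EV replicate 1 was the highest or lowest of the 6 libraries in 7 of the 9 tested members, and in 56.2% of all tested genes. It was highest in PRKCA, PRKCH and RASGRP1, whose transcripts have at most 50% G and C. It was lowest in PRKCD, PRKD2 and RASGRP2, with 56.1% to 63.9%, and also in PRKCE with 47.4%. In log2 it lay 0.20 above the mean of the other 5 libraries in RASGRP1, and in RASGRP2 the value was -0.36. PRKCE had the largest departure among the members, -0.55, and its GC content lies beside that of PRKCQ, at 47.5%, which departed by 0.01.

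**Figure D3:**
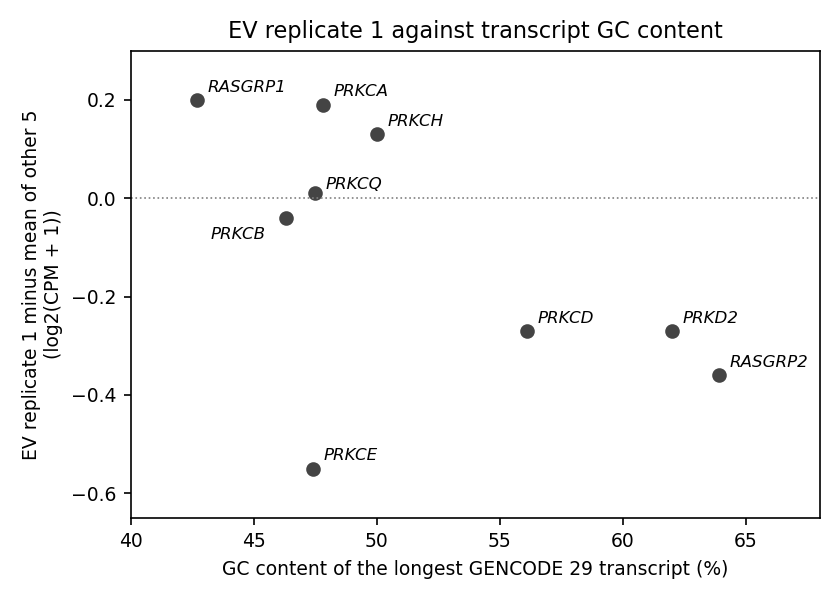
Departure of EV replicate 1 from the mean of the other 5 libraries (log2(CPM + 1)) against the GC content of the longest transcript, 1 point per tested member. The 3 members above 56% G and C lie at -0.27 to -0.36, and PRKCE, at 47.4%, lies lower still at -0.55.

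Between genes, levels were compared per kilobase of exonic length in GENCODE 29, since the lengths implied by the deposited FPKM are not those of the genes (420 bases for PRKCH and 400 for PRKD2, whose exons span 8833 and 5446). On that scale PRKCA was highest, at a mean of 70.0 CPM per kilobase, above 96.2% of tested genes. RASGRP1 followed at 33.7, then PRKCH at 23.8, PRKCB at 22.2 and PRKCQ at 20.3. The ranges of PRKCH and PRKCB overlapped, as did those of PRKCB and PRKCQ, so their order is not resolved. PRKD2 at 10.7, RASGRP2 at 7.89, PRKCD at 3.06 and PRKCE at 1.5 did not overlap with their neighbours. The length used matters: with the longest coding transcript PRKCH came second at 58.6, above RASGRP1 at 40.9, and the ranges of PRKCQ, PRKD2 and RASGRP2 ran into each other, as did those of PRKCD and PRKCE.

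The make-up of protein kinase C differed little among the libraries. Per kilobase of exonic length, PRKCA gave 45.5% to 49.0% of all reads of 8 protein kinase C genes, the 7 members and PRKCI, PRKCH 14.2% to 16.8%, PRKCB 13.6% to 15.6% and PRKCQ 12.8% to 14.7%. Conventional genes held 62.3% ± 0.38 in EV and 61.5% ± 1.0 in SCML4 (SD, n = 3 each), calcium-independent genes 32.3% ± 1.00 and 33.0% ± 0.94, and atypical genes 5.39% ± 0.71 and 5.48% ± 0.65. The groups overlapped in each class, and no p-value is attached to these sums over chosen genes. The reads of the 8 genes summed to 1386 ± 79.7 CPM in EV and 1365 ± 46.4 in SCML4 (SD, n = 3 each), again overlapping.

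**Figure D4:**
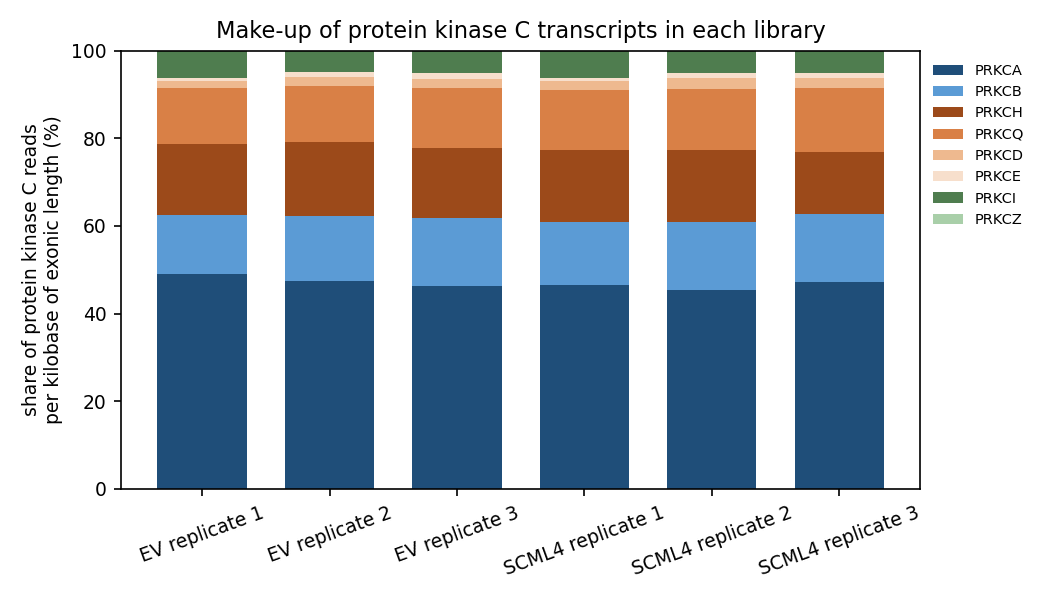
Share of each of 8 protein kinase C genes in their summed reads per kilobase of exonic length, 1 bar per library. PRKCA takes 45.5% to 49.0% in every bar, PRKCZ at most 0.0261%, and the conventional, calcium-independent and atypical shares of the groups overlap.

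Outside the members, 6 lists of pathway genes were followed, and in each of them limma-voom also passed 0 genes with the same count at an unadjusted p under 0.05 as limma-trend. The first held 12 relatives, among them the isoenzymes already given, the chimaerins and the UNC13 family of secretion factors. Of these 8 were tested, 5 differences were positive, the median was 0.08 and 0 passed in limma-trend (0 at an unadjusted p under 0.05). UNC13D, which primes cytotoxic granules for release and lacks the C1 domain of its relatives, stood at 50.4, 71.8 and 74.6 CPM in EV and 72.4 to 76.2 in SCML4. EV replicate 1 was again the low library there, and without it the UNC13D difference of 0.19 was 0.01. CHN2 and UNC13A, the other relatives of smallest p, had 7 to 25 and 7 to 18 reads.

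No enzyme that makes or removes diacylglycerol passed the test. Of 12 tested genes of phospholipase C and its adaptors, 10 were positive with a median of 0.06, where 52.4% of all tested genes were positive. Without EV replicate 1, 5 of the 12 were positive, and after GC correction or with library weights 7 were. In limma-trend on all libraries with equal weight, 0 passed and 1 had an unadjusted p under 0.05, as did 5.27% of all tested genes. That one was PLCB1, a phospholipase C driven by G proteins, at 18.3 to 21.0 CPM in EV and 21.1 to 25.5 in SCML4 (log2 difference 0.28, adjusted p = 0.866). PLCD1 and PLCE1 had differences of 0.33 and -0.18. Of 7 tested diacylglycerol kinases, 3 were positive and 4 negative with a median of -0.06, 0 passed and 1 had an unadjusted p under 0.05. It was DGKG, at 0.826 to 1.45 CPM in EV and 1.90 to 3.53 in SCML4, from 8 to 32 reads. DGKZ, the zeta kinase that restrains RASGRP1 in T cells, stood at 104, 129 and 125 CPM in EV and 118 to 142 in SCML4, and DGKE had a difference of -0.12.

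Of 28 tested genes of RAS, RAP1, their regulators, RAF, MEK and ERK, 20 were positive with a median of 0.05. Over all tested genes 52.4% were positive. Without SCML4 replicate 3, 14 of the 28 were positive with a median of 0.0, and without EV replicate 2 or 3, 17 were. In limma-trend on all 6 libraries 0 passed, and 1 had an unadjusted p under 0.05, as did 5.27% of all tested genes. MAP2K2, the MEK2 kinase, stood at 91.1 to 104 CPM in EV and 108 to 124 in SCML4, a difference of 0.22 (adjusted p = 0.866). The MAP2K2 difference was 0.14 after GC correction, 0.14 with library weights and 0.17 without EV replicate 1. RASA3, a GTPase activating protein of RAS and RAP1, had a difference of 0.17. Groups were apart with SCML4 higher in 3 of the 28 genes, MAP2K2 and RASA3 among them, and in 6.29% of all tested genes. They were apart with SCML4 lower in 0 of the 28 and in 5.36% of all tested genes. RAP1GAP2 switches RAP1 off, the opposite step to RASGRP2. It stood at 27.6, 49.7 and 47.2 CPM in EV and at 28.9, 30.1 and 33.3 in SCML4. EV replicate 1 lay below every SCML4 library and the other 2 EV libraries above them all. The difference was -0.38 with an adjusted p of 0.866 over 6 libraries, -0.59 with library weights (adjusted p = 0.0323) and -0.64 without EV replicate 1 (adjusted p = 0.0112). Both of these fits passed more genes than the fit over 6 libraries of equal weight, as given in the closing section. In limma-voom with library weights RAP1GAP2 did not pass. Over its alternatives the adjusted p of RAP1GAP2 reached from 0.0112 to 0.99. After GC correction the difference was -0.44 (adjusted p = 0.852), RAP1GAP2 having 56.0% G and C.

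Protein kinase C theta reaches NF-κB through a complex that holds BCL10 and MALT1. Of 16 tested genes of that complex and the kinases it reaches, 8 were positive and 8 negative, and the median was 0.01. In limma-trend 0 passed, and 1 had an unadjusted p under 0.05, as did 5.27% of all tested genes. CHUK and IKBKB, the catalytic IκB kinases, had differences of -0.27 and -0.20, and EV replicate 1 was the highest library in both. With library weights the differences were -0.15 and -0.11, and without EV replicate 1 they were -0.19 and -0.11.

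**Figure D5:**
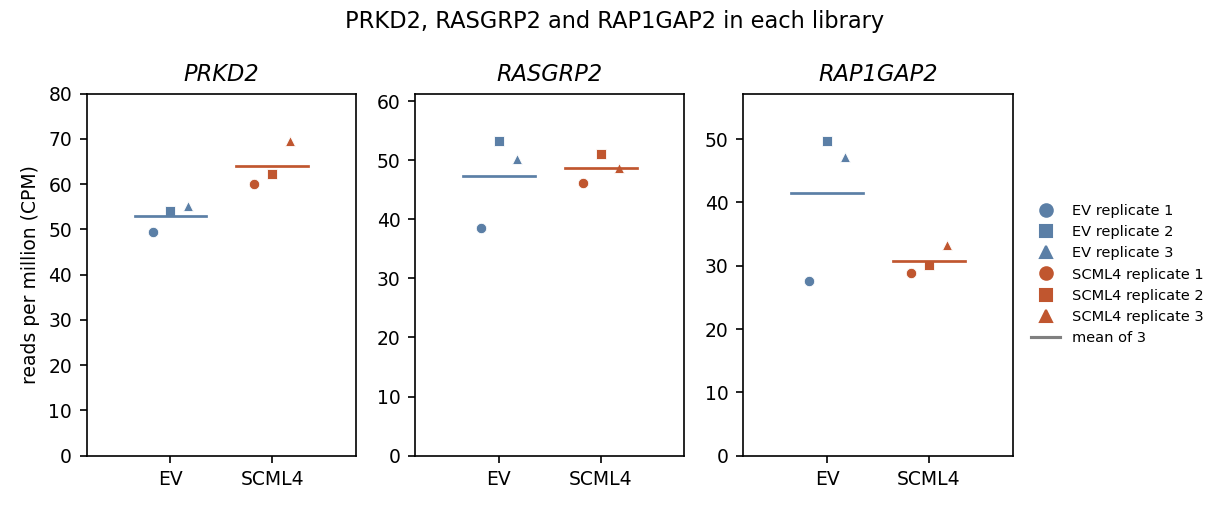
CPM of PRKD2, RASGRP2 and RAP1GAP2 on linear axes that start at 0, 1 symbol per library with the mean of 3 as a line. PRKD2 has separate groups (49.5 to 55.2 against 60.1 to 69.6), and in the other 2 genes EV replicate 1 is the lowest of the 6 libraries.

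Kinases, phosphatases, anchors, partners and substrates of protein kinase C and D gave 27 tested genes, 15 positive and 12 negative with a median of 0.03, and 0 passed in limma-trend. At an unadjusted p under 0.05 there were 2 of the 27, ADD3 among them, and 5.27% of all tested genes. ADD3, an adducin of the membrane skeleton that protein kinase C phosphorylates, stood at 121, 132 and 133 CPM in EV and at 86.3, 116 and 110 in SCML4, so that each SCML4 library lay lower. Its difference was -0.32 (unadjusted p = 0.00934, adjusted p = 0.866 in limma-trend). Groups were apart with SCML4 lower in 3 of the 27 genes, ADD3 among them, and in 5.36% of all tested genes. They were apart with SCML4 higher in 3 of the 27 and in 6.29% of all tested genes. MAPKAP1, a subunit of the mTOR complex that phosphorylates the tail of protein kinase C, had a difference of 0.14.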

How the data were processed

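RNA-seq of 6 Jurkat libraries (3 EV, 3 SCML4, from the sample titles) was used. Per the labels' protocols, RNA was taken with TRIzol and libraries were prepared by a SMARTer kit. Per the submitters' processing notes, FastQC, STAR, SAMtools and the hg19 build were used. Which tool counted, whether by strand and with what lengths is not given in the sources used here. Deposited values are FPKM, 1 column per library, per the file headers.

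FPKM steps gave the reads of all 23897 rows above 0 and the library totals, within 0.002 of a read. A common divisor was multiplied back in 719 rows until the implied length was whole, and one that keeps it whole cannot be seen. Floors cover counting error only. Genes averaging 10 reads or more were tested on log2(CPM + 1) by limma-trend (limma 3.58.1, R 4.3.3) with Benjamini-Hochberg adjustment over all of them and a threshold of 0.05. The pseudocount and filter were put on CPM because the lengths implied by FPKM differ from the genes' own. The scripts were tested on simulated data. Exonic lengths and GC content came from GENCODE 29 on GRCh38, with no coordinates carried over, and promoters from RefSeq. GC correction was a lowess per library, span 0.3. Members and lists were chosen by name with earlier results of these data known, so class shares, which are sums over chosen genes, have no p-value. Named genes were SCML4, the members and up to 3 genes of smallest p per list. Lists are described by counts and medians, without a test. A planned description of C1 domains was not made, protein sequences not being used here. Libraries of a group differed by a chi-square per gene of 2.6 to 11.13, so none was a duplicate. Class shares are over 8 protein kinase C genes, and some planned genes are not reported here. Alternatives are given in the closing section.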

Additional observations from a re-analysis of the deposited data

How the results depend on the processing

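No member passed under any of the 19 alternatives run, and PRKD2 stayed positive in all of them, at 0.18 to 0.31 with unadjusted p under 0.05 in 18; the exception was leaving out SCML4 replicate 3 (unadjusted p = 0.0644). The count of genes past the threshold, 1 over 6 libraries, was 0 on the deposited FPKM (where SCML4 had 1.88 and an adjusted p of 0.0619), 2 with median ratio scaling, 3 with quantile normalization, 3 after GC correction, 19 with library weights and 14 in limma-voom with library weights, which was added after the data had been seen. Leaving out 1 library gave 1 to 14 genes, the 14 without EV replicate 1, against 2 at most for any other library. Same-numbered libraries had correlations of -0.057, -0.113 and -0.048 between their deviations from the group mean. The other pairs of an EV and an SCML4 library had -0.072 to 0.14. Whether same-numbered libraries shared a batch was not tested. With the replicate block 2 genes passed and no member did.

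Small differences changed sign, none of them called: without EV replicate 1 PRKCA was 0.03, PRKCE -0.18, RASGRP1 0.05, RASGRP2 -0.09 and DGKE 0.01. With library weights PRKCE was -0.07, RASGRP1 0.05, RASGRP2 -0.03 and DGKZ -0.02. In limma-voom with library weights PRKCE was -0.09, RASGRP1 0.04, RASGRP2 -0.03 and DGKZ -0.005. After GC correction RASGRP1 was 0.01 and RASGRP2 -0.05. Without SCML4 replicate 2 PRKCE was -0.03, and without SCML4 replicate 3 PRKCE was -0.1 and PRKCB -0.01. Over the single libraries left out, PRKCA ran from -0.08 to 0.03, PRKCB from -0.01 to 0.07, PRKCE from -0.18 to 0.26, RASGRP2 from -0.09 to 0.14 and DGKE from -0.19 to 0.01. The cause of these changes was not tested. RAP1GAP2 was the single named gene called under an alternative and not with all 6 libraries of equal weight. Members under about 100 reads per library are limited by counting.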
